A study of Mus musculus with 23 samples.

Results

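Helper T cells divide into lineages under a small group of transcription factors, and 7 of them, Gata3, Rora, Bcl6, Maf, Prdm1, Batf and Irf4, are described here across Stat5b genotypes. They were chosen by symbol, each matched 1 of the 32285 genes in the expression tables, and their unique molecular identifiers (UMIs, which count captured RNA molecules) were read in Cd4-positive T cells and in cells with the T-cell receptor delta gene Trdc. In lymph node (LN), 3260 Cd4-positive T cells and 159 Trdc-positive cells were found among 43474 droplet barcodes, and in spleen 3469 and 433 among 20500. The mice were C57BL/6 animals (C57BL/6N per the methods of the study) aged 2 months, and male per the methods. LN was profiled in 2 wild-type (WT), 3 Y665F heterozygous (het) and 2 Y665F homozygous (homo) libraries. Spleen was profiled in 1 library for each of WT, Y665H and Y665F, and the labels give neither the animals behind each nor their zygosity. The paper describes CD45+ spleen cells, with several mice combined into a sample for each genotype. The edits change the tyrosine Y665 of STAT5B to phenylalanine (Y665F, made with CRISPR and a donor oligonucleotide) or to histidine (Y665H, made with a base editor) in the germline. The LN labels number the replicates without naming animals, so the spread between these libraries may be technical. The tests estimate that spread by sharing it over genes, so p-values do not measure the spread of each gene alone.

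STAT5B is activated by cytokine receptors such as the interleukin-2 (IL-2) receptor, moves to the nucleus and binds DNA. Gata3 directs the Th2 lineage and is also used by regulatory T cells, and Rora acts in Th17 cells and in innate-like lymphocytes. Bcl6 is the defining repressor of follicular helper T (Tfh) cells and of germinal centre B cells, and Prdm1 (Blimp-1) opposes it in effector and regulatory cells. Maf drives IL-10, IL-21 and type 17 programs in Tfh cells, regulatory T cells and type 17 gamma-delta T cells. Batf and Irf4 bind DNA together at composite sites after antigen receptor signalling. STAT5 signalling is known to work against Bcl6 in CD4 T cells.

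A Cd4-positive T cell held at least 1 UMI of Cd4 and of a Cd3 gene, and 0 UMIs of Cd8a, Cd8b1, Trdc and B cell genes such as Cd79a and Ms4a1. A Trdc-positive cell held at least 1 Trdc UMI and 0 UMIs of Cd4, the Cd8 genes and the B cell genes. Levels are CPM, the UMIs of a gene per 1000000 UMIs of the gated cells of a library, with exact Poisson 95% intervals where given, which cover counting error only. Of 10 gamma-delta T cell markers, between 3 and 7 were detected in the LN Trdc-positive cells of each library. Of the LN Cd4-positive T cells, between 93.3% and 98.3% per library had a productive T-cell receptor beta chain in the matching receptor table, whereas between 17.9% and 38.5% of the LN Trdc-positive cells had one. LN depth was uneven: the Cd4-positive T cells held between 53455 and 2879781 UMIs per library, and het replicate 3 and homo replicate 1 were the shallowest, with 123 and 115 cells and a median of 442 and 432 UMIs per cell against 1002 to 3201 in the other 5. Between any 2 libraries at most 91 barcodes were shared, at most 1.56% of the smaller library in any pair, and 10 shared barcodes over all 45 pairs lay in the gated cells. The labels and the methods name different kits (3′ and 5′), so levels were compared only within a tissue. Fewer cells of a type and less RNA per cell cannot be told apart in these sums.

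In LN Cd4-positive T cells, Maf was the member that fell in both Y665F groups. Of the 7 members, 5 had enough counts for the edgeR quasi-likelihood test, and 1 of these 5 fell in homo and 1 in het cells at an adjusted p under 0.05, while none rose. Among the 6528 genes tested, 0.276% fell in homo and 0.199% in het cells under the same rule. The slope over 0, 1 and 2 edited alleles passed with a negative sign for 2 of the 5, Maf and Batf, as it did for 0.429% of all genes. The median log2 fold change of the 5 members was -0.96 in homo, -0.67 in het and -0.57 per allele, and that of all genes was -0.02, -0.01 and -0.01. Rora and Prdm1 had too few UMIs for this test and were read from a fit without the low-count filter over 14642 genes. In that fit the median of all 7 members was -0.90 in homo, -0.40 in het and -0.27 per allele. That of all genes there was -0.06, 0.01 and -0.01.

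**Figure D1:**
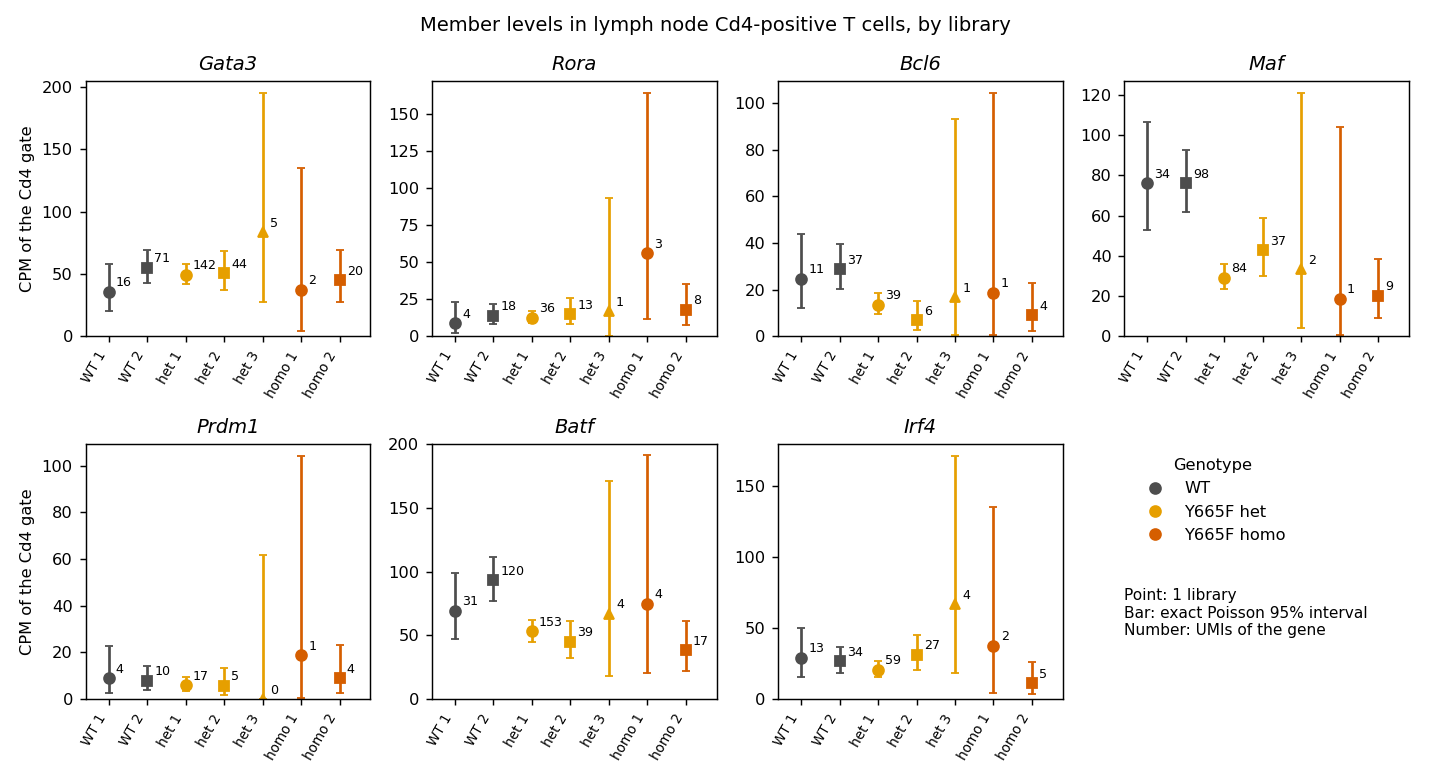
Level of each member in LN Cd4-positive T cells (CPM, vertical axis) in the 7 LN libraries (horizontal axis), with exact Poisson 95% intervals as bars and the UMIs behind each point as numbers. The Maf points of both WT libraries stand at 76.1 CPM and those of the 5 Y665F libraries between 18.7 and 42.7 CPM, and the Bcl6 points of all 5 Y665F libraries lie below both WT points. For both genes, the points of het replicate 3 and homo replicate 1 rest on 1 or 2 UMIs, and their intervals cover the WT levels.

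Maf (GRCm38, chromosome 8, 115682942 to 115707794, minus strand) encodes c-Maf. Its level was 76.1 CPM in each WT library (34 and 98 UMIs), 29.2, 42.7 and 33.4 CPM in the het libraries (84, 37 and 2 UMIs) and 18.7 and 20.3 CPM in the homo libraries (1 and 9 UMIs). The libraries fell in the order WT, het and homo, but het replicate 3 (4.05 to 121 CPM) and homo replicate 1 (0.474 to 104 CPM) were below the 3-count limits of 50.2 and 56.1 CPM, and their exact 95% intervals covered the levels of the other genotypes. Relative to WT, Maf fell by 1.85 on the log2 scale in homo cells (SE 0.41, adjusted p = 0.00867) and by 1.14 in het cells (SE 0.20, adjusted p = 0.000646), and its slope was -1.06 per allele (SE 0.17, adjusted p = 3.63e-05), in the edgeR test with Benjamini-Hochberg adjustment over all genes. DESeq2 gave -1.88 and -1.06 with adjusted p = 0.99997 and 0.99987, so neither group difference passed there, while its slope of -1.001 per allele passed (adjusted p = 0.00869). The homo difference also no longer passed without WT replicate 2 (-1.90, adjusted p = 0.056) and without homo replicate 2 (-2.21, adjusted p = 0.787), and the het difference without WT replicate 2 (-1.18, adjusted p = 0.156) and without het replicate 1 (-0.79, adjusted p = 0.702). Where 1 WT or homo library was left out, the lone library of that group was assumed to vary like those of the other groups, and without homo replicate 2 the homo group was 1 library with 1 Maf UMI. Without WT replicate 1 or homo replicate 1, the homo difference still passed (adjusted p = 0.0114 and 0.0246).

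The Maf UMIs of the Cd4-positive T cells were divided between subsets. Foxp3, the defining factor of regulatory T cells, marked 22 and 51 WT cells (5.60% and 5.70% of the gate), 82, 36 and 6 het cells (9.60%, 7.58% and 4.88%) and 2 and 18 homo cells (1.74% and 4.44%). After thinning to 300 UMIs the Foxp3 shares were 1.91% and 1.87% for WT, 2.05%, 1.98% and 2.79% for het and 1.49% and 1.42% for homo libraries, beside at most 0.237% of CD8 T cells. Among the Foxp3-negative cells, those with a UMI of Cxcr5 or Pdcd1, surface receptors of Tfh cells, were 14 of 371 (3.77%) and 42 of 844 (4.98%) in WT, 11 of 772 (1.42%), 8 of 439 (1.82%) and 1 of 117 (0.855%) in het, and 0 of 113 and 2 of 387 (0.517%) in homo. The count of 0 of 113 cells, in a library with a median of 432 UMIs per Cd4-positive T cell, allows a share of cells with a UMI of up to 2.65% and sets no limit on cells that use either gene. Both WT shares lay above all 5 Y665F shares, and they stayed above them when each cell was thinned in the same way (1.17% and 1.26% in WT, 0.131%, 0.374% and 0.836% in het, 0% and 0.155% in homo). CD8 T cells, thinned alike, had between 0.181% and 0.421% of cells with either gene, so the het and homo shares of replicates other than het replicate 3 lay at or below 0.421% and the WT shares above it. This subset was defined after its values were seen, so no test is given for its size.

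In WT replicates 1 and 2, the Cxcr5- or Pdcd1-positive cells gave 12 of 34 and 28 of 98 Maf UMIs, although they held 4.39% and 8.08% of the UMIs of the gate. The Foxp3-positive cells gave 7 and 33, and all other cells 15 and 37. In het replicates 1 and 2, the Cxcr5- or Pdcd1-positive cells gave 5 of 84 and 1 of 37 Maf UMIs, and the Foxp3-positive cells 49 and 21. In homo replicate 2, these subsets gave 0 and 1 of 9. Set against all UMIs of the gate, the Maf UMIs of Cxcr5- or Pdcd1-positive cells came to 26.9 and 21.7 CPM in WT and to 1.74 and 1.15 CPM in het replicates 1 and 2. The other 3 Y665F libraries had 0 such UMIs, and for het replicate 3 and homo replicate 1 the 3-count limits of 50.2 and 56.1 CPM lay above the WT values, so a difference from WT was not detectable in these 2 libraries.

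**Figure D2:**
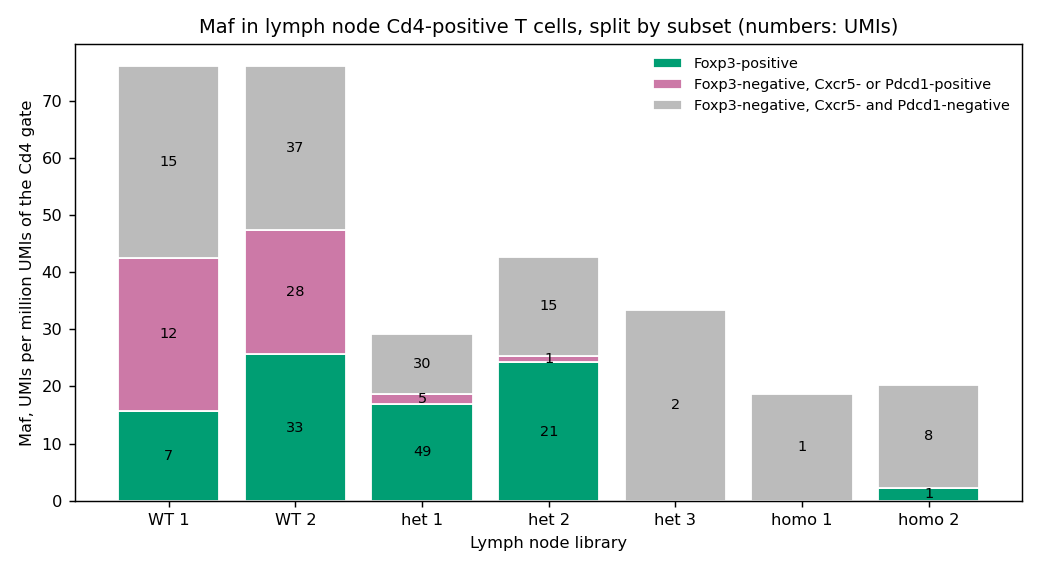
Maf UMIs per 1000000 UMIs of LN Cd4-positive T cells (vertical axis) in each LN library (horizontal axis), stacked by subset, with the UMIs of each part as numbers. The Cxcr5- or Pdcd1-positive part is 26.9 and 21.7 for the WT libraries, 1.74 and 1.15 for het replicates 1 and 2, with 0 UMIs for the other 3 libraries, of which het replicate 3 and homo replicate 1 hold 2 and 1 Maf UMIs in all, and the Foxp3-negative cells without Cxcr5 and Pdcd1 give 33.6 and 28.7 in WT and between 10.4 and 33.4 in Y665F.

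Within Foxp3-negative cells, Maf stood at 65.0 and 54.1 CPM in WT, 13.7, 20.2 and 35.2 CPM in het and 19.0 and 18.9 CPM in homo. The het difference was -1.77 there (adjusted p = 0.000135) and the homo difference -1.54 (adjusted p = 0.164). After cells with Cxcr5 or Pdcd1 were removed from the whole gate, no Maf difference passed: they were -1.14 in homo (adjusted p = 0.442) and -0.64 in het (adjusted p = 0.61), and the slope was -0.61 (adjusted p = 0.183). With Foxp3-positive cells removed as well, the values were -0.84 (adjusted p = 0.773), -1.19 (adjusted p = 0.257) and -0.76 per allele (adjusted p = 0.343). In a wider gate of T cells that lacked Cd8 but did not need a Cd4 UMI, Maf fell in both groups (-1.64, adjusted p = 0.000705, and -0.96, adjusted p = 0.00627). These last 3 gates were added after the data were seen. The wider gate may hold CD8 T cells whose Cd8 RNA was missed, a population with at most 4.29 CPM of Maf per LN library. Its size was 1768 and 3045 for WT replicates 1 and 2, beside 393 and 895 Cd4-positive T cells. For homo replicates 1 and 2 it was 1824 and 1918, beside 115 and 405. For het replicates 1, 2 and 3 it was 1498, 1423 and 1748, beside 854, 475 and 123. The part of missed CD8 T cells in the Maf differences of this gate was not tested.

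Bcl6 (chromosome 16, 23965052 to 23988852, minus strand) stood at 24.6 and 28.7 CPM in WT (11 and 37 UMIs), 13.5, 6.92 and 16.7 CPM in het (39, 6 and 1 UMIs) and 18.7 and 9.001 CPM in homo (1 and 4 UMIs). All 5 Y665F libraries lay below both WT libraries, and the het and homo ranges overlapped. On 1 UMI each, het replicate 3 (0.423 to 93.2 CPM) and homo replicate 1 (0.474 to 104 CPM) were below the 3-count limits of 50.2 and 56.1 CPM. The exact intervals of both covered both WT levels, so the order rests on the other Y665F libraries. The differences of -1.37 in homo (SE 0.71, adjusted p = 0.626) and -1.13 in het (SE 0.39, adjusted p = 0.372) and the slope of -0.94 per allele (SE 0.31, adjusted p = 0.19) did not pass. In the wider gate that did not need a Cd4 UMI, the slope of -0.79 passed (adjusted p = 0.0167), where 0.33% of 9389 genes had a negative slope that passed. That gate may hold CD8 T cells whose Cd8 RNA was missed, and their part in this slope was not tested. LN CD8 T cells, gated in the same way, held 12.1 and 9.92 CPM of Bcl6 in WT, 4.98, 4.38 and 7.49 CPM in het and 0 and 6.24 CPM in homo, so that both WT levels lay above all 5 Y665F levels. The interval of het replicate 3 (4 UMIs, 2.04 to 19.2 CPM) covered both WT levels. That of homo replicate 2 (15 UMIs, 3.49 to 10.3 CPM) covered the lower WT level. LN B cells held between 61.0 and 104 CPM, and their WT values of 71.7 and 99.4 CPM lay within the Y665F range. B cell marker RNA in the LN Cd4-positive T cells was 141 and 59.0 CPM in WT, 44.8, 41.5 and 201 CPM in het and 56.1 and 24.8 CPM in homo, mostly from Cd74, which had a slope of -0.81 per allele (adjusted p = 0.0209). Its part in the Bcl6 values was not tested.

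STAT5 binds palindromic sites of the form TTCNNNGAA, and the 250 bases before each annotated start were searched for these letters, which read the same on both strands. RefSeq windows on GRCm38.p6 were at hand for 6 of the 7 members (7 windows, none for Maf). The 2 Bcl6 windows held the motif and the 5 windows of Gata3, Rora, Prdm1, Batf and Irf4 did not, while 2306 of 32851 windows in the table (7.02%) held it. The first lies upstream of the annotated gene at chr16:23988902-23989030, with its match starting 118 bases before the start. The second lies in an intron of the annotated gene at chr16:23981303-23981511, before an alternative start, with 3 matches starting 168, 122 and 88 bases before it. Both stretches are shown on the minus strand, 5′ to 3′, with the motif in capitals, because they are the windows among the members that hold it. A match is a description of the letters and not of binding.
Bcl6 window 1: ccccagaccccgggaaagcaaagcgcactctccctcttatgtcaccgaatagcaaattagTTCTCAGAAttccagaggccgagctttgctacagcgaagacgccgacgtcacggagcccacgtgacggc
Bcl6 window 2: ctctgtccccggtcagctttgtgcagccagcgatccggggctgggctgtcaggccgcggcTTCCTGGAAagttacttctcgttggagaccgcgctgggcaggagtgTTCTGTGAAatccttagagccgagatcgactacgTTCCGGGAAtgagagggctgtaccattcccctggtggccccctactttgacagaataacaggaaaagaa

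Batf (chromosome 12, 85686669 to 85709087, plus strand) is the AP-1 family partner of Irf4. It stood at 69.4 and 93.1 CPM in WT (31 and 120 UMIs), 53.1, 45.0 and 66.9 CPM in het (153, 39 and 4 UMIs) and 74.8 and 38.3 CPM in homo (4 and 17 UMIs). The homo libraries lay on either side of WT replicate 1, and the 3 het libraries lay below both WT libraries. The intervals of het replicate 3 (18.2 to 171 CPM) and homo replicate 1 (20.4 to 192 CPM), on 4 UMIs each, covered both WT levels. Batf fell with a slope of -0.57 per allele (SE 0.14, adjusted p = 0.0251), whereas the differences of -0.67 in het (adjusted p = 0.0929) and -0.96 in homo (adjusted p = 0.226) did not pass. Without WT replicate 1 the het difference of -0.77 passed (adjusted p = 0.0411). The slope did not pass in 11 of 22 alternatives. These were DESeq2 (-0.52, adjusted p = 0.375) and the fits in Foxp3-negative cells (-0.48, adjusted p = 0.164), without WT replicate 2, het replicate 1, het replicate 2 or homo replicate 2 (between -0.35 and -0.62, adjusted p between 0.0635 and 0.826), with the replicate number as a block (-0.56, adjusted p = 0.0616), with paired receptor chains required (-0.55, adjusted p = 0.071), and in the 3 gates added after the data were seen (between -0.40 and -0.46, adjusted p between 0.124 and 0.354).

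Irf4 (chromosome 13, 30749226 to 30766976, plus strand) stood at 29.1 and 26.4 CPM in WT, 20.5, 31.2 and 66.9 CPM in het and 37.4 and 11.3 CPM in homo, on 2 to 59 UMIs per library. Its genotypes overlapped, and the differences of -0.87 in homo (adjusted p = 0.766) and -0.08 in het (adjusted p = 0.994) did not pass. Gata3 (chromosome 2, 9857078 to 9890034, minus strand) overlapped as well, with 35.8 and 55.1 CPM in WT, 49.3, 50.8 and 83.6 CPM in het and 37.4 and 45.0 CPM in homo. Its differences were -0.11 ± 0.35 (SE) in homo and 0.10 ± 0.20 in het, and its slope was 0.00 ± 0.15 per allele.

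Rora (chromosome 9, 68653786 to 69388246, plus strand), which encodes an orphan nuclear receptor, was counted at 4 and 18 UMIs in WT (8.95 and 14.0 CPM), 36, 13 and 1 in het (12.5, 15.0 and 16.7 CPM) and 3 and 8 in homo (56.1 and 18.0 CPM). Both homo values were the highest of the 7, on 11 UMIs in all, and the difference of 0.85 (SE 0.60, adjusted p = 0.917) did not pass. Prdm1 (chromosome 10, 44437177 to 44528501, minus strand) had 4 and 10 UMIs in the WT libraries, 17, 5 and 0 in the het libraries and 1 and 4 in the homo libraries, and its differences of 0.34 (SE 0.83) and -0.40 (SE 0.57) did not pass (adjusted p = 0.997 and 0.886). No change of these genes between genotypes was detected in LN Cd4-positive T cells at this depth.

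**Figure D3:**
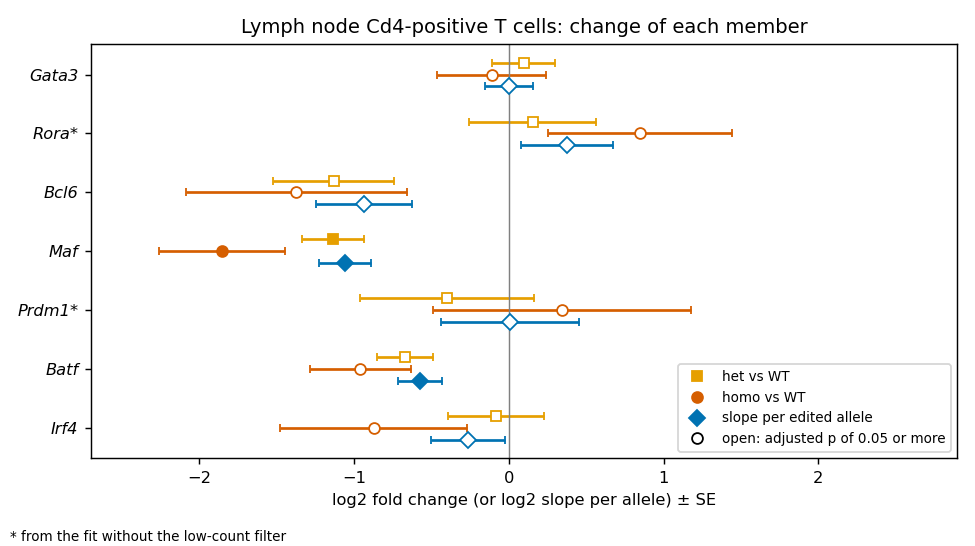
Log2 fold change of each member in LN Cd4-positive T cells for het and homo against WT, and log2 slope per edited allele (horizontal axis), with standard errors as bars and members on the vertical axis. Filled points passed an adjusted p of 0.05, which are the 3 Maf points and the Batf slope, and Rora and Prdm1 come from the fit without the low-count filter.

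Other genes of the helper T programs were read from lists of which few members had enough counts in LN Cd4-positive T cells. Of all 6528 genes, 0.276% fell and 0.429% rose in homo, and 0.199% fell and 0.169% rose in het, under the rule used for these lists. Of the Tfh list (Cxcr5, Pdcd1, Icos and others), 6 of 12 genes were tested and 1 passed: Icos, a costimulatory receptor, fell by 1.40 in homo (adjusted p = 0.00807) and by 0.88 in het (adjusted p = 0.00173). Icos stood at 107 and 154 CPM in WT, 73.3, 68.1 and 83.6 CPM in het and 112 and 42.8 CPM in homo, so homo replicate 1, with 6 UMIs, overlapped WT. Cxcr5 was at 20.1 and 22.5 CPM in WT, and at 1.04, 2.31 and 16.7 CPM in het and 0 and 2.25 CPM in homo, on at most 3 UMIs in any Y665F library. Of the regulatory T cell list, 9 of 12 were tested, 2 fell in homo and 1 in het: Izumo1r (folate receptor 4) by 1.19 and 0.62 (adjusted p = 0.000957 and 0.00952), and Tnfrsf9 in homo by 1.97 (adjusted p = 0.0436). None of the 3 tested Th1 genes and none of the 3 tested Th2 genes passed, and of 2 tested Th17 genes Stat3 fell in homo by 0.94 (adjusted p = 0.0267). These tests used edgeR over all 6528 genes. By DESeq2, over the same genes, 2 passed in homo and 2 in het, and all were higher than in WT. No fall named here passed by DESeq2.

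In the list of IL-2 and STAT5 response genes, 15 of 18 were tested, and Pim1 and Bcl2, a kinase and a survival factor, rose in homo by 1.25 and 0.80 (adjusted p = 0.000109 and 0.0361). In het cells Bcl2 rose by 0.83 (adjusted p = 0.000372), and Socs3, a feedback inhibitor of cytokine receptors, fell by 1.15 (adjusted p = 0.00217). All 8 naive T cell genes were tested: Dapl1, Klf2 and Igfbp4 rose in homo (1.78, 0.96 and 0.94), Dapl1 and Igfbp4 rose in het (1.43 and 0.94), and none fell. Of 10 tested effector-memory genes, Lgals1 and Crip1 rose in homo (0.96 and 0.82) and Lgals1 in het (0.77). Of the 17 tested factors that act with the members (AP-1, STAT, Runx and others), Stat3 alone passed in homo and none in het. These, too, are edgeR results. By DESeq2, 2 genes in all passed in homo and 2 in het, and all were higher than in WT. The Socs3 fall therefore did not pass there, and at most 2 rises in each group did. The list medians were -0.82 and -0.38 for Tfh genes, -0.62 and -0.27 for regulatory genes and 0.11 and 0.14 for naive genes in homo and het, beside -0.02 and -0.01 for all genes.

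Cell populations of the same LN libraries were compared next, with the library as a block. Against Foxp3-negative cells, Foxp3-positive cells had more Maf, Prdm1 and Rora, by 2.69 (SE 0.26, adjusted p = 1.62e-22), 3.16 (SE 0.52, adjusted p = 3.57e-07) and 1.63 (SE 0.41, adjusted p = 0.0051) on the log2 scale in the fit without the low-count filter, where 1.66% of genes were higher. Rora no longer passed without WT replicate 2 (1.45, adjusted p = 0.0761) and without het replicate 1 (1.49, adjusted p = 0.25). Summed over the 7 LN libraries, Maf was at 202 CPM in Foxp3-positive and 28.1 CPM in Foxp3-negative cells, Prdm1 at 38.2 and 3.64 CPM, and Rora at 40.0 and 11.1 CPM. Gata3 (0.54, adjusted p = 0.515), Batf (0.83, adjusted p = 0.0774) and Irf4 (0.72, adjusted p = 0.434) did not pass, while Batf passed in 5 of 10 alternatives. In 3 of these it had enough counts for the low-count filter, without het replicate 3, without homo replicate 1 and without both (between 1.03 and 1.04, adjusted p between 0.000686 and 0.00214). Without that filter it passed without het replicate 3 (0.85, adjusted p = 0.0417) and without homo replicate 2 (0.89, adjusted p = 0.0385). Bcl6, at 3 UMIs in 217 Foxp3-positive cells and 96 in 3043 Foxp3-negative cells, did not pass either (-1.71, adjusted p = 0.193).

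S100a4, a calcium-binding protein of effector-memory T cells, was detected in 53 of the Foxp3-negative LN cells. These cells had more Maf (181 against 24.1 CPM, log2 fold change 2.25, SE 0.41, adjusted p = 6.49e-06) and more Rora (101 against 8.78 CPM, 2.73, SE 0.55, adjusted p = 0.000104) than the S100a4-negative cells, in a fit where 1.17% of genes were higher. Bcl6 was at 0 UMIs in them, of 138051 UMIs, which allows up to 21.7 CPM, beside 17.9 CPM in the S100a4-negative cells. Prdm1 (2.72, adjusted p = 0.181), Gata3 (0.53, adjusted p = 0.674), Irf4 (0.33, adjusted p = 0.929) and Batf (0.20, adjusted p = 0.929) did not pass. S100a4-positive cells numbered 7 and 16 per WT library, 12, 8 and 2 per het library and 1 and 7 per homo library, too few to compare genotypes.

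**Figure D4:**
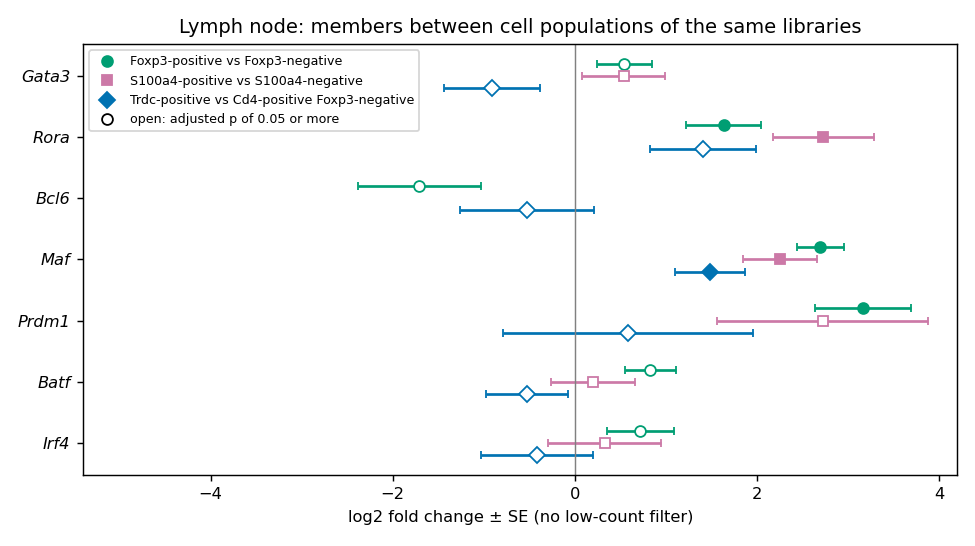
Log2 fold change of each member (horizontal axis, bars are standard errors) between cell populations of the same LN libraries, from the fit without the low-count filter. Maf is filled, which marks an adjusted p under 0.05, in all 3 comparisons, Rora in the Foxp3 and S100a4 comparisons and Prdm1 in the Foxp3 comparison, and no point is drawn for Bcl6 in S100a4-positive cells, where it had 0 UMIs.

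Ordered by level over all LN libraries, Maf was at 202 CPM in Foxp3-positive cells, 126 in Trdc-positive cells, 28.1 in Foxp3-negative Cd4 cells, 10.3 in B cells and 2.29 in CD8 T cells. The ranges over libraries overlapped at each of these steps. Gata3 was at 80.1 CPM in Foxp3-positive, 46.6 in Foxp3-negative, 32.4 in Trdc-positive, 25.4 in CD8 and 0.279 in B cells, and each step overlapped between libraries except that from CD8 T cells (20.1 to 34.5 CPM) to B cells (0 to 2.26 CPM). Bcl6 and Irf4 were highest in B cells (85.8 and 102 CPM), at 61.0 to 104 and 72.7 to 128 CPM per library, above the Foxp3-negative Cd4 cells with at most 29.1 and 52.9 CPM. Smaller gates overlapped them: Irf4 reached 87.0 CPM (6 UMIs) in the Trdc-positive cells of WT replicate 2 and 135 CPM (10 UMIs) in the Foxp3-positive cells of het replicate 2, and both genes 329 CPM (1 UMI) in the 6 Foxp3-positive cells of het replicate 3. Batf was at 115 CPM in Foxp3-positive, 55.6 in Foxp3-negative, 52.7 in Trdc-positive, 41.2 in CD8 and 24.6 in B cells, with neighbouring ranges that overlapped. Rora was at 44.6 CPM in Trdc-positive, 40.0 in Foxp3-positive, 11.1 in Foxp3-negative, 4.08 in CD8 and 0.139 CPM (1 UMI) in B cells. WT replicate 2 held 7 of the 11 Rora UMIs in Trdc-positive cells, and without it Rora was at 22.5 CPM there and at 36.7 CPM in Foxp3-positive cells, so the first step of this order rests on that library. The range of Rora in CD8 T cells (1.87 to 4.83 CPM) lay above that in B cells (0 to 0.507 CPM). B cells of het replicate 3, homo replicate 1 and homo replicate 2 held 0 Rora UMIs, with 3-count limits of 31.2, 33.8 and 6.78 CPM. These limits exceeded the CD8 range, so the Rora step was not shown in these libraries. For Gata3, also at 0 UMIs in B cells of the first 2, their limits lay within the CD8 range. The limit of het replicate 3 exceeded the Gata3 level of its own CD8 T cells (20.6 CPM), and that of homo replicate 1 was close to it (34.5 CPM). The Gata3 step was therefore not shown in these 2 libraries. Prdm1 was at 38.2 CPM in Foxp3-positive cells and at 8.11 (2 UMIs), 3.64, 2.24 and 1.67 CPM in Trdc-positive, Foxp3-negative, CD8 and B cells, with ranges that all included 0.

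Within Foxp3-positive LN cells, no member passed the low-count filter, and in the fit without it 0 of 7 passed in homo or het. Of all 606 genes tested there with edgeR, 0 were called in homo and 0 in het, with 46 and 34 at an unadjusted p under 0.05, and DESeq2 called 0 in each. Maf was at 222 and 381 CPM in WT, 147 and 284 CPM in het replicates 1 and 2, 0 UMIs in 6 cells of het replicate 3, 0 in 2 cells of homo replicate 1 and 48.5 CPM (1 UMI) in homo replicate 2. WT and het overlapped. The homo difference in Foxp3-positive cells was not shown to differ from that in Foxp3-negative cells for any member (adjusted p = 1.0 for all 7).

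Trdc-positive LN cells were few, 23 and 43 per WT library, 28, 22 and 12 per het library and 13 and 18 per homo library. Against Foxp3-negative Cd4 cells they had more Maf (log2 fold change 1.48, SE 0.38, adjusted p = 0.00617), which was the 1 of 7 members that passed, where 0.975% of genes were higher. Maf had 2 and 21 UMIs in WT (88.0 and 304 CPM), 3, 2 and 0 in het and 0 and 3 in homo, and WT replicate 2 held 21 of the 31. Without that library the Maf difference was 0.83 (SE 0.55, adjusted p = 0.73), so passing rests on it, and Maf was at 56.3 CPM in the other Trdc-positive cells. Rora (1.41, adjusted p = 0.262), Prdm1 (0.58, adjusted p = 0.933), Gata3 (-0.91, adjusted p = 0.562), Bcl6 (-0.53, adjusted p = 0.933), Batf (-0.52, adjusted p = 0.837) and Irf4 (-0.42, adjusted p = 0.933) did not pass. Cells that also had a Cd3 UMI and a type 17 gene (Cd163l1, 5830411N06Rik or Il23r), 23 of the 159, held 28 of these 31 Maf UMIs and 9 of 11 Rora UMIs. The 121 Cd3-positive cells without such a gene held 3 and 2. No member passed the low-count filter in a genotype comparison of Trdc-positive cells, and 0 of 7 passed without it (adjusted p of 0.892 or more). Of 349 genes tested with edgeR, 0 were called in homo, with 38 at an unadjusted p under 0.05, and 6 in het, while DESeq2 called 0 in both.

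In spleen there was 1 library per genotype, so the values compare these libraries and carry no test. In Cd4-positive T cells of the Y665F library, Irf4 was higher and Bcl6 lower than in WT by more than 2-fold (log2 ratio beyond 1), as 3.03% of 9387 genes were in either direction, and no member passed that limit in the Y665H library, where 1.19% of 9732 genes did. Irf4 was at 4.29 CPM in WT (31 UMIs), 6.41 in Y665H (50 UMIs) and 13.7 in Y665F (78 UMIs), a log2 ratio of 1.67 for Y665F (95% interval 1.06 to 2.32) and 0.58 for Y665H (-0.10 to 1.27). Bcl6 was at 13.6 CPM in WT (98 UMIs), 16.8 in Y665H (131 UMIs) and 5.09 in Y665F (29 UMIs), a log2 ratio of -1.41 for Y665F (-2.07 to -0.80) and 0.31 for Y665H (-0.08 to 0.70). These intervals cover counting error only. The median gene stood at -0.13 in Y665F, and with TMM scaling the Irf4 and Bcl6 ratios were 1.80 and -1.29.

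The Bcl6 level of the Y665F spleen library was also below that of WT in Foxp3-negative Cd4 and in CD8 T cells. In Foxp3-negative Cd4 cells it was 12.3 CPM in WT, 16.8 in Y665H and 5.29 in Y665F, in CD8 T cells 8.06, 13.2 and 2.57, and in Trdc-positive cells 15.7, 13.7 and 2.71 (16, 15 and 1 UMIs). The Trdc-positive values were under the minimum of 50 UMIs, and the interval of the Y665F log2 ratio there included 0 (-7.92 to 0.15). In B cells it was 51.2 CPM in WT (45.5 to 57.5), 40.9 in Y665H (36.4 to 45.7) and 48.4 in Y665F (40.6 to 57.3), so the WT and Y665F intervals overlapped. B cell marker RNA in the spleen Cd4-positive T cells was 235 CPM in WT, 197 in Y665H and 48.6 in Y665F, and its part in the Bcl6 and Irf4 values was not tested.

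Gata3 in spleen Cd4-positive T cells was at 64.4 CPM in WT, 60.01 in Y665H and 104 in Y665F (465, 468 and 593 UMIs), a log2 ratio of 0.69 in Y665F (0.52 to 0.87) and -0.10 in Y665H (-0.29 to 0.09). Within Foxp3-negative cells it was 58.3, 56.4 and 86.8 CPM, and within Foxp3-positive cells 126, 104 and 172 CPM, so Y665F was highest in both. Rora was at 35.0, 39.9 and 23.2 CPM, lowest in Y665F (-0.60, -0.91 to -0.29). Prdm1 was at 11.1, 11.7 and 19.3 CPM and Batf at 26.2, 36.2 and 35.3 CPM, with log2 ratios of 0.80 (0.37 to 1.24) and 0.43 (0.14 to 0.72) in Y665F and 0.07 (-0.37 to 0.53) and 0.47 (0.20 to 0.74) in Y665H.

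Maf in spleen Cd4-positive T cells was at 131 CPM in WT (944 UMIs), 157 in Y665H (1226 UMIs) and 182 in Y665F (1037 UMIs), a log2 ratio of 0.48 in Y665F (0.35 to 0.61) and 0.27 in Y665H (0.14 to 0.39). The cells that were Foxp3-negative and had no Cxcr5 or Pdcd1 UMI were at 100.3, 97.6 and 99.3 CPM, and their intervals overlapped. Foxp3-positive cells were 9.12%, 7.57% and 20.6% of the gate (5.74%, 4.70% and 12.3% after thinning to 2000 UMIs, beside 0.745%, 0.641% and 0.795% of CD8 T cells), and their Maf level was 237, 313 and 335 CPM. Cxcr5- or Pdcd1-positive cells were 5.20%, 11.3% and 8.28% of the Foxp3-negative cells (2.51%, 5.58% and 4.18% thinned, beside 2.22%, 2.18% and 2.05% of CD8 T cells), and their Maf level was 435, 506 and 718 CPM. The Foxp3-positive cells held 16.3% of the Maf UMIs in WT, 15.0% in Y665H and 37.4% in Y665F, and the Cxcr5- or Pdcd1-positive cells 18.0%, 34.2% and 22.2%.

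**Figure D5:**
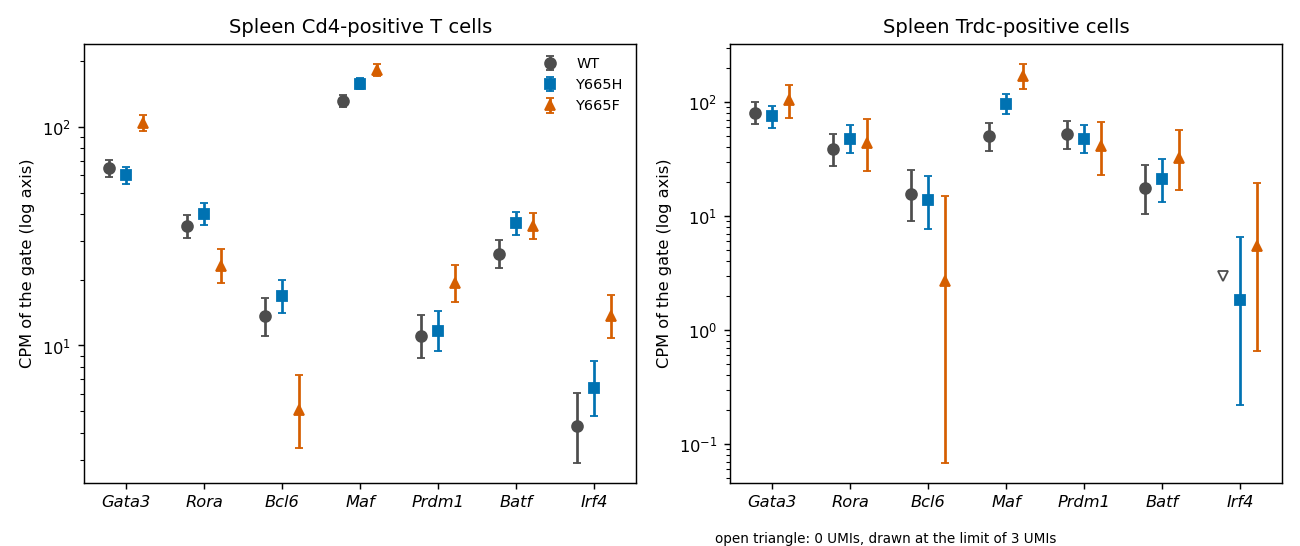
Level of each member (CPM on a log axis) in spleen Cd4-positive T cells (left) and Trdc-positive cells (right) of 1 WT, 1 Y665H and 1 Y665F library, with exact Poisson 95% intervals as bars. In Cd4-positive T cells Bcl6 is lowest at 5.09 CPM and Irf4 highest at 13.7 CPM in Y665F, and in Trdc-positive cells Maf is at 50.1, 96.8 and 168 CPM.

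Among other genes of the spleen Cd4-positive T cells, 8 of 12 regulatory T cell genes were past 2-fold and higher in Y665F, where 1.57% of all genes were, such as Foxp3 (1.18), Il2ra (1.34) and Tnfrsf4 (2.05), and none in Y665H, where 1.05% of all genes were. Of the IL-2 and STAT5 response genes, 10 of 18 were past it and higher in Y665F, led by Gzmb (5.37), Socs2 (2.64) and Cish (2.27), and none of 17 in Y665H. Of the Th2 genes with enough UMIs, 2 of 4 were past it and higher in Y665F, Il1rl1 (3.66) and Ccr4 (2.13), and 1 of 3 in Y665H, Ccr4 (1.001). Of 10 Tfh genes, 1 was past it and higher in each, Pdcd1 (1.32 in Y665F and 1.56 in Y665H). Of the group 2 innate lymphoid cell markers with enough UMIs, 2 of 2 were past it and higher in Y665F. Foxp3-positive cells were 9.12% of this gate in WT, 7.57% in Y665H and 20.6% in Y665F. Their part in the values of these lists was not tested. RNA of 9 myeloid and neutrophil markers in this gate was 136 CPM in WT, 1476 in Y665H and 2541 in Y665F, with S100a8 at 10.8, 502 and 864 CPM, and its part in the member values was not tested.

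In spleen Trdc-positive cells (188 in WT, 177 in Y665H and 68 in Y665F), Maf was at 50.1, 96.8 and 168 CPM on 51, 106 and 62 UMIs. The log2 ratio was 1.75 in Y665F (1.19 to 2.31), the only member with at least 50 UMIs over both libraries past 2-fold, where 4.93% of 4280 genes were past it and 0.864% past it and higher. It was 0.95 in Y665H (0.45 to 1.46), where 1.56% of 5572 genes were past 2-fold and 1.08% past it and higher. With a Cd3 UMI required, the ratios were 2.44 and 1.505. The few Cd3-positive cells with a type 17 gene, 4 in WT, 10 in Y665H and 5 in Y665F, held 3, 60 and 37 Maf UMIs, and the Cd3-positive cells without one were at 34.9, 27.5 and 65.6 CPM. Gata3, Rora and Prdm1 had ratios between -0.36 and 0.36 in both comparisons, with intervals that included 0. Batf had 18, 23 and 12 UMIs and Irf4 0, 2 and 2, under that minimum. The median gene stood at -0.14 in Y665F and -0.04 in Y665H. Without a Cd3 UMI there were 81, 67 and 25 cells, and natural killer cell markers were at 7393, 5297 and 6938 CPM in the whole gate. Myeloid and neutrophil markers reached 7692 CPM in the Y665H Trdc-positive cells, beside 1149 in WT and 1294 in Y665F, and their part was not tested.

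The share of cells with a UMI followed depth as well as level. In LN Cd4-positive T cells, Maf was detected in 6.36% and 5.59% of cells of the WT libraries, 5.62%, 4.42% and 1.63% of the het libraries and 0.87% and 1.98% of the homo libraries, and after thinning to 300 UMIs in 2.32% and 1.76%, 0.80%, 1.10% and 1.06%, and 0.44% and 0.424%. Both WT shares were above all Y665F shares only after thinning. In LN CD8 T cells, where the gene is little used, the thinned share was at most 0.0839%. After thinning, Bcl6 was detected more often in LN B cells than in Cd4-positive T cells of each of the 7 libraries, and Irf4 in 6 of 7, with 1.08% of B cells and 1.20% of Cd4-positive T cells in het replicate 3. Gata3 was detected, unthinned, in at most 0.196% of LN B cells. In spleen, thinned to 2000 UMIs, Maf was detected in 12.8% of WT, 16.2% of Y665H and 19.0% of Y665F Cd4-positive T cells, and in 2.77%, 3.18% and 2.47% of B cells.

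Genes with the most similar pattern were sought among 6352 genes over 35 points (5 LN gates in 7 libraries, which share depth and library), by Pearson correlation of log2(CPM + 10), as a description. Maf was most like Ptms (0.80), Hnrnpll (0.78) and S100a4 (0.78), Rora most like Ikzf2 (0.82) and Prdm1 most like Il2ra (0.73). Gata3 was most like Tnfrsf25 (0.86), Bcl6 like Abhd17b (0.83), Irf4 like Btla (0.90) and Batf like Atxn10 (0.89).

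Reads of genes that overlap a member were few in the LN Cd4-positive T cells. The antisense gene Gm15655, which overlaps Maf, had 0 UMIs there and 125 in the spleen Cd4-positive T cells, and Gm13256, which overlaps Gata3, had 8 and 7.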

How the data were processed

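Droplet single-cell libraries of LN (7) and spleen (3) were used of the 23 samples in the series. Per the labels and the file headers, the authors aligned reads to mm10 with Cell Ranger (5.0.0 for LN, 6.0.0 for spleen) and deposited raw UMI counts per gene and barcode, and Seurat 4.0 is also named. The counts were used as deposited. A barcode was kept if it had 200 genes or more and no more than 10% of its UMIs from mitochondrial genes, cells carrying markers of another type were excluded from each gate, and no doublet caller was applied in the reported values. T-cell receptor contig tables gave the productive chains. UMIs were summed per library and gate and tested in LN with edgeR 4.0.16 (TMM scaling, filterByExpr, quasi-likelihood test, Benjamini-Hochberg adjustment over all genes tested) in R 4.3.3, with 1 fit over the 3 genotypes. A gene passed at an adjusted p under 0.05, and was called when its log2 fold change was also beyond 1. Comparisons of gates kept the library as a block. Spleen, with 1 library per genotype, was described with exact intervals (scipy 1.17.1) for genes with at least 50 summed UMIs. Shares of cells were also computed after thinning to 300 UMIs in LN and 2000 in spleen, which left out shallower cells. Alternatives included DESeq2 1.42.0, other filters and gates, and each library left out in turn. The scripts were tested on simulated data. All 7 members were read in each comparison, some given by a count or range alone, and of other lists the genes that passed were named, at most 4 per list by size of the change. Members and lists were chosen with earlier results of these data known. Coordinates are GRCm38 (GENCODE vM21).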

Additional observations from a re-analysis of the deposited data

How the results depend on the processing

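Of 598 recomputed member values, 534 kept their direction and side of the threshold, 27 no longer passed and 7 newly passed at an adjusted p under 0.05, 27 changed sign and 3 spleen Maf ratios moved beyond their counting interval. In LN Cd4-positive T cells, Maf kept a negative sign under every alternative run. The sign changes concerned values that did not pass, of Gata3, Irf4, Prdm1 and Batf. In the Gata3 slope they were -0.0054 without the low-count filter, -0.012 with at least 300 genes per barcode, -0.019 in Foxp3-negative cells, -0.054 in S100a4-negative cells, -0.041 with paired receptor chains, -0.0022 in Cxcr5- and Pdcd1-negative cells and -0.026 with Foxp3-positive cells also removed. Leaving out 1 library moved that slope between -0.10 and 0.12. In het, Gata3 was -0.015 in that last gate and between -0.043 and 0.52 with 1 library left out, and Irf4 was 0.21 by DESeq2, 0.034 in Cd8-negative T cells, 0.28 in Cxcr5- and Pdcd1-negative cells, 0.0050 with Foxp3-positive cells also removed and between -0.24 and 0.39 with 1 library left out. In homo, leaving out 1 library moved Gata3 between -0.60 and 0.32 and Irf4 between -1.18 and 0.27, and it moved the Prdm1 slope between -0.23 and 0.11. Between gates, without the filter, it moved Irf4 between -0.13 and 0.68 and Batf between -0.18 and 0.37 (-0.11 without het replicate 1) in the S100a4 comparison, and Prdm1 between -0.40 and 0.97 and Irf4 between -6.11 and 0.0097 in the Trdc comparison, where Irf4 had 0 UMIs in Trdc-positive cells without WT replicate 2. The causes were not tested.

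The counts of called genes moved more. In LN Cd4-positive T cells, homo against WT called 32 genes, with 2 by DESeq2, 20 with at least 300 genes per barcode and 4 to 43 with 1 library left out. Het called 13, with 1 by DESeq2, 41 without the low-count filter, 27 without the marker exclusion, 20 without the 2 shallowest libraries, 22 in S100a4-negative cells, 7 in Cd8-negative T cells, 7 in Cxcr5- and Pdcd1-negative cells, 8 with Foxp3-positive cells also removed and 4 to 35 with 1 library left out. The slope called 9, with 3 by DESeq2, 30 without the filter, 22 without the shallowest libraries, 20 in S100a4-negative cells, 5 in Cxcr5- and Pdcd1-negative cells and 4 to 26 with 1 library left out. With the replicate number as a block, 24, 6 and 7 genes were called in homo, het and slope. Deviations of libraries from their genotype means had correlations under 0.04 in size between genotypes, over 6528 genes. In a group of 2 libraries these deviations mirror each other, so this check cannot show whether the numbers pair the libraries. Among the members in Cd4-positive T cells, the Batf slope alone no longer passed with the block.

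In Foxp3-positive cells, homo called 0 genes, with 1 under RLE scaling, 2 without the marker exclusion and 0 to 0 with 1 library left out, and het called 0, with 1 without the filter, 3 without the exclusion, 2 without the shallowest libraries and 0 to 2 with 1 left out. In Trdc-positive cells, homo called 0, with 1 at 300 genes per barcode, 1 without the exclusion, 10 without the shallowest libraries, 7 with the block and 0 to 18 with 1 left out, and het called 6, with 0 by DESeq2, 11 without the filter, 3 without the exclusion, 14 without the shallowest libraries, 0 in cells with no productive beta chain and 0 to 23 with 1 left out. Without the filter and without the shallowest libraries, the calls between gates went from 29 to 390 and 221 (Foxp3), from 53 to 627 and 203 (S100a4) and from 36 to 261 and 121 (Trdc), and with 1 library left out to 24 to 130, 50 to 65 and 24 to 44. Genes whose homo change differed between Foxp3-positive and Foxp3-negative cells numbered 2, with 0 by DESeq2, 4 without the filter, 1 without simulated doublets and 0 to 5 with 1 left out, and between Trdc-positive and Foxp3-negative Cd4 cells 6, with 0, 10 without simulated doublets and 0 to 8. The minimum of 300 genes could not be fitted for the Foxp3 comparisons, since homo replicate 1 kept 0 Foxp3-positive cells. The gates without Cd4 or without Cxcr5 and Pdcd1, and the unfiltered fits with 1 library left out, were chosen after seeing the data. Depth limits Rora and Prdm1 in LN, and most members in Trdc-positive cells.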
